A study of Mus musculus with 8 samples.

Results

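Notch signalling passes messages between touching cells. Ligands of the Jagged and Delta-like families on one cell bind Notch receptors on its neighbour, the receptor is then cut by ADAM proteases and by gamma-secretase, and the freed inner part joins the DNA-binding protein RBPJ to switch on genes such as the Hes and Hey repressors. In mesenchymal cells and in the mural cells of vessels, the pathway is known for its part in keeping cells from maturing and in setting smooth muscle identity. The genes described here are 10 of that pathway, taken by exact symbol from the deposited table: the ligands Jag1 and Jag2, the receptors Notch1, Notch2 and Notch3, the DNA-binding factor Rbpj and the targets Hes1, Hey1, Hey2 and Heyl. All 10 were among the 18306 genes of the table, and 8 had enough reads to enter the test, along with 11844 genes in all.

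The cells were C3H10T1/2, an established multipotent line from mouse embryos, used as a model of mesenchymal stem cells. Both groups spent 24 h in basal medium lacking serum, followed by 24 h of treatment, one with 5 µM sphingosine 1-phosphate (S1P, a lipid that acts on G protein-coupled receptors) and the other with its vehicle, fatty acid-free bovine serum albumin. There were 4 vehicle libraries, replicates 1 to 4, and 4 S1P libraries, replicates 5 to 8. All came from this line, and nothing in the labels says that each library was its own culture. The p-values therefore measure no more than the spread between these samples, which may be technical. Whether fewer cells of a kind or less RNA per cell lies behind a difference cannot be told apart in bulk samples.

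The libraries held 13750303 to 13761544 counts each. Vehicle replicate 4 stood apart from the other vehicle libraries on the second principal component of all tested genes (-50.8 against 14.6 to 36.5), and 2.5% of its counts were mitochondrial, against 3.45% to 3.83% in the other libraries. Levels are given in CPM, which relates the counts of a gene to its library total after a correction for composition. All 8 mesenchymal markers looked for, among them Col1a2, Vim and Prrx1, were tested, with a summed level of 12292 to 18498 CPM in vehicle and 11684 to 15127 CPM after S1P. None of the 8 passed, but they were not all level. Pdgfra had means of 1571 CPM in vehicle and 762 CPM after S1P (log2 fold change -1.04, BH-adjusted p = 0.0853 in edgeR). Twist1 went the other way, from 17.4 to 22.3 CPM without overlap of the groups (0.35, BH-adjusted p = 0.114 in edgeR). Of 6 endothelial markers, 5 (Pecam1, Cdh5, Kdr, Tie1 and Emcn) stayed under 1 CPM in each library, while the sixth, the angiopoietin receptor Tek, held 36.3 to 76.6 CPM in vehicle and 17.0 to 43.9 CPM after S1P and did not pass (log2 fold change -0.81, BH-adjusted p = 0.178 in edgeR). The smooth muscle and pericyte markers summed to 1154 to 1412 CPM in vehicle and 1536 to 2858 CPM after S1P, although Myh11 and Des stayed under 1 CPM.

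After S1P, the ligand gene Jag1 and the target genes Hes1 and Hey2 rose, by 1.71-fold, 1.75-fold and 2.13-fold. None of the 3 receptors and not Rbpj passed the test. In all, 3 of the 8 tested members were higher (edgeR quasi-likelihood test, p adjusted over all genes by Benjamini-Hochberg, here BH, with a threshold of 0.05), where 5.6% of all tested genes were higher. No member was lower, where 2.9% of all tested genes were. At an unadjusted p under 0.05, 0 of 8 members were lower, where 1385 of the 11844 tested genes were. With DESeq2 or limma-voom 0 members were lower, where 6.82% and 2.87% of all genes were. For 8 members, a count of 0 is near these shares. The groups did not overlap for the same 3 members, which held for 19.1% of all tested genes in either direction. The median log2 fold change was 0.36 over the 8 members and -0.04 over all tested genes.

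The stretch of DNA just before a gene's start can hold RBPJ motifs, and it is shown here for Jag1 and Hey2, the members that rose and have an entry in the RefSeq promoter table (build GRCm38.p6). Of the 10 members, 7 were matched there, and Hes1, Hey1 and Heyl were not. Each line gives the 250 bases before the annotated start, 5′ to 3′ on the gene's strand, and capitals mark each TGGGAA, the core letters of the RBPJ motif, read on either strand.
Jag1, chr2:137116521-137116770, minus strand: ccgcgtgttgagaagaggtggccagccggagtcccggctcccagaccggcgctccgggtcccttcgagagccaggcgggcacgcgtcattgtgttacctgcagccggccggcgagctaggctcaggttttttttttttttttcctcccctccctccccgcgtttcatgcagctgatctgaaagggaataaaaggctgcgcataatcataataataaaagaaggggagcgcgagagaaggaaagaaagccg
Hey2, chr10:30842784-30843033, minus strand: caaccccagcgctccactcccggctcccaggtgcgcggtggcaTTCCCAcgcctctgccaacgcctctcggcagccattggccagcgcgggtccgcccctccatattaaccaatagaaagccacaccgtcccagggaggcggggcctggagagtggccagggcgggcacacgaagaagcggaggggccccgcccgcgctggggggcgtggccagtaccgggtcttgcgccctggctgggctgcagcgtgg
The Hey2 window held 1 match, on the opposite strand and 207 to 202 bases before the start, and there the longer form GTGGGAA, which contains the core, matched too. The Jag1 window held none. The core was found in 2 of the 7 matched members, Hey2 and Rbpj, and the longer form in 1 of them. Over 32851 promoters of the same length in the table, 21.6% held TGGGAA and 5.42% held GTGGGAA on either strand, so such matches are common and describe the letters alone.

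**Figure D1:**
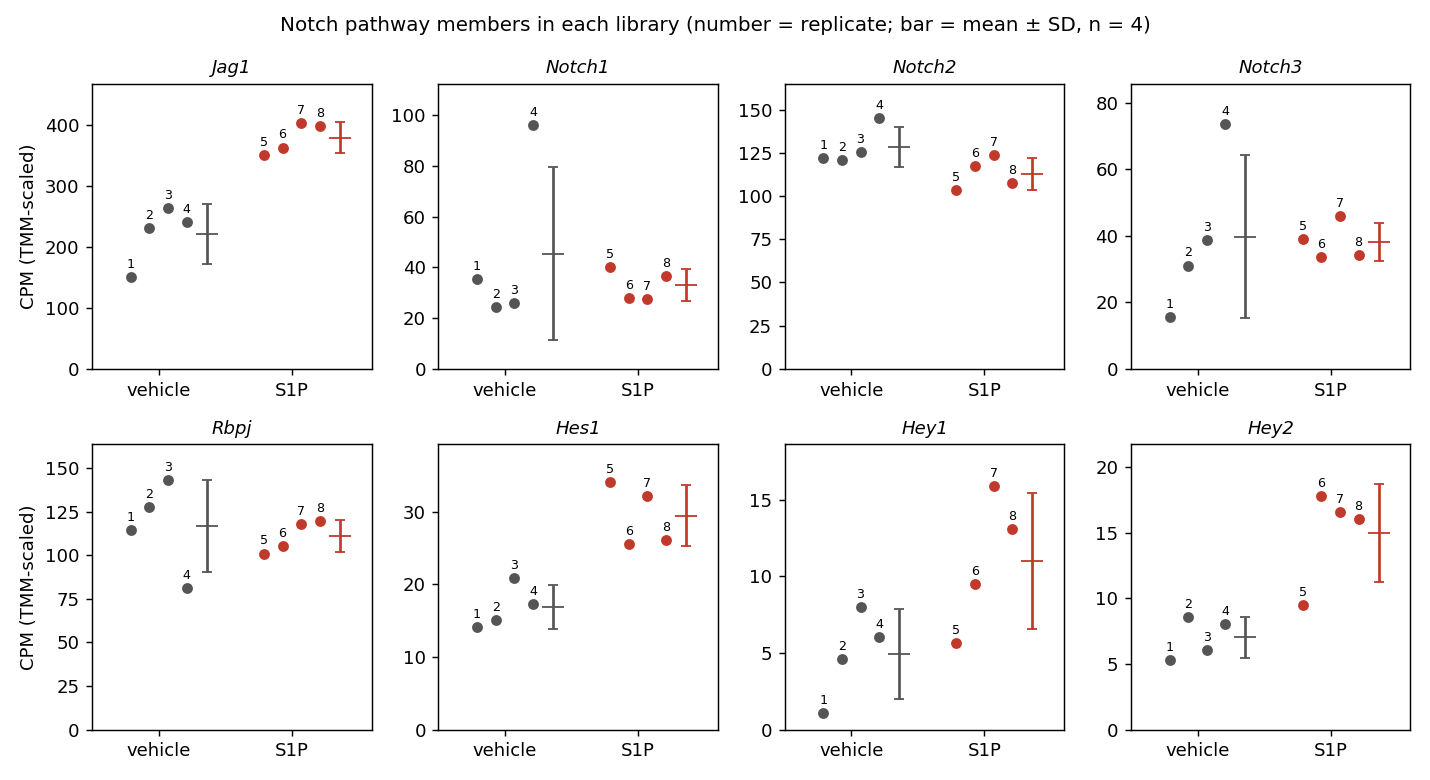
Level of each tested member in each library, in CPM scaled for composition, with vehicle in grey and S1P in red. Points carry the replicate number, and the bars are mean ± SD over 4 libraries. For Jag1, Hes1 and Hey2 each S1P library lies above each vehicle library, and vehicle replicate 4 is far above the other vehicle libraries for Notch1 and Notch3.

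Jag1 encodes Jagged1, a membrane-bound ligand (chromosome 2, 136906992 to 136942580 in mm9). Vehicle replicates 1 to 4 held 151, 232, 263 and 240.5 CPM of Jag1, and S1P replicates 5 to 8 held 352, 363, 404 and 399 CPM. Vehicle replicate 1 was the lowest of all, and the highest vehicle library stayed well below the lowest S1P library. The means were 222 ± 49.0 CPM in vehicle and 379 ± 25.9 CPM after S1P (SD, n = 4 per group), a log2 fold change of 0.78 (SE 0.17, 95% interval 0.40 to 1.15, BH-adjusted p = 0.0212 in edgeR). The call was lost without vehicle replicate 2 or without S1P replicate 6, 7 or 8 (adjusted p of 0.0507 to 0.0707 in edgeR), while the log2 fold change lay between 0.61 and 0.87 in the 8 leave-one-out fits, each without 1 library.

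Jag2, the other Jagged ligand, was close to absent from these libraries. It had 18 counts in all, of which 13 were in vehicle replicate 4 (0.944 CPM), and 0 in vehicle replicates 1 and 3 and S1P replicate 5. A count of 0 allows up to 3 counts, or 0.213 to 0.223 CPM at these totals, for counting error alone, and the remaining 4 libraries were also below that level. No fold change is given for it.

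Notch1, a receptor of broad expression (chromosome 2, 26313223 to 26372383), held 35.4, 24.3, 26.0 and 96.1 CPM in vehicle replicates 1 to 4 and 40.1, 27.8, 27.5 and 36.5 CPM in S1P replicates 5 to 8. Apart from vehicle replicate 4, the libraries lay between 24.3 and 40.1 CPM, with the groups mixed. The log2 fold change was -0.46 (SE 0.42, 95% interval -1.40 to 0.47, BH-adjusted p = 0.514 in edgeR), and without vehicle replicate 4 it was 0.21. The span of Notch1 overlaps 0610009E02Rik, which had 0.216 to 0.296 CPM in each library.

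Notch3, the receptor typical of mural cells (chromosome 17, 32257565 to 32304025), held 15.7, 31.1, 38.7 and 73.7 CPM in vehicle replicates 1 to 4. Its S1P libraries held 38.9, 33.6, 45.9 and 34.1 CPM and so fell inside the vehicle range. The log2 fold change was -0.06 (SE 0.38, 95% interval -0.92 to 0.79, BH-adjusted p = 0.932 in edgeR) and turned to 0.42 without vehicle replicate 4. The interval is wide enough to hold a change of the size seen for Jag1, in either direction.

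Notch2, the receptor with the most reads of the 3 (chromosome 3, 97817261 to 97954490), held 122, 120.8, 125 and 145 CPM in vehicle and 103, 117, 123 and 107 CPM after S1P. The groups overlapped through S1P replicate 7. Its log2 fold change was -0.19 (SE 0.11, 95% interval -0.43 to 0.05, BH-adjusted p = 0.311 in edgeR), the narrowest interval among the 8 members.

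Rbpj, the factor through which the receptors reach DNA (chromosome 5, 53946818 to 54048884), held 114, 128, 143 and 81.1 CPM in vehicle and 101, 105, 118 and 119.8 CPM after S1P. The S1P libraries lay inside the vehicle range, of which vehicle replicate 4 was the low end. The log2 fold change was -0.07 (SE 0.17, 95% interval -0.44 to 0.30, BH-adjusted p = 0.818 in edgeR).

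Hes1 encodes a helix-loop-helix repressor that responds quickly to Notch and to other signals (chromosome 16, 30064270 to 30068082). Vehicle replicates 1 to 4 held 14.1, 15.1, 20.9 and 17.4 CPM of Hes1, and S1P replicates 5 to 8 held 34.1, 25.6, 32.2 and 26.2 CPM. The groups did not overlap, and S1P replicate 5, the lowest S1P library for Jag1, Hey1 and Hey2, was the highest for Hes1. The mean was 16.9 ± 2.98 CPM in vehicle and 29.5 ± 4.27 CPM after S1P (SD, n = 4 libraries each, with a log2 fold change of 0.81, SE 0.17, 95% interval 0.43 to 1.18, BH-adjusted p = 0.0176 in edgeR). The call was lost without vehicle replicate 2 or S1P replicate 7 (adjusted p = 0.0541 and 0.0624 in edgeR), with a log2 fold change of 0.70 to 0.92 in the leave-one-out fits.

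Hey2, a repressor of the related Hey group with a known part in heart and arterial cells, also rose after S1P (chromosome 10, 30551965 to 30562807). Its vehicle libraries held 5.33, 8.61, 6.07 and 8.06 CPM, and S1P replicates 5 to 8 held 9.46, 17.8, 16.6 and 16.0 CPM. S1P replicate 5 stood only just above the vehicle range, and the other S1P libraries far above it. The mean was 7.02 ± 1.57 CPM in vehicle and 14.97 ± 3.75 CPM after S1P (SD, n = 4 libraries each, with a log2 fold change of 1.09, SE 0.25, 95% interval 0.54 to 1.65, BH-adjusted p = 0.0255 in edgeR). The call was lost in 5 fits, those lacking vehicle replicate 1, vehicle replicate 3 or any of S1P replicates 6 to 8 (adjusted p of 0.0599 to 0.0931 in edgeR), and the log2 fold change stayed between 0.96 and 1.26.

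Hey1, a further repressor of the Hey group (chromosome 3, 8663162 to 8667239), had the larger fitted difference but a wider spread. It held 1.07, 4.60, 7.99 and 6.03 CPM in vehicle and 5.63, 9.52, 15.9 and 13.1 CPM after S1P. The groups overlapped, because S1P replicate 5 lay below vehicle replicates 3 and 4. Its log2 fold change was 1.16 (SE 0.52, 95% interval -0.0047 to 2.33), and it did not pass (BH-adjusted p = 0.203 in edgeR). Whether the changes of Hey1 and Hey2 differ was not tested. Heyl, the remaining Hey gene, had 7 counts over all 8 libraries and at most 2 in any, so each library was under 3 counts and no fold change is given.

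**Figure D2:**
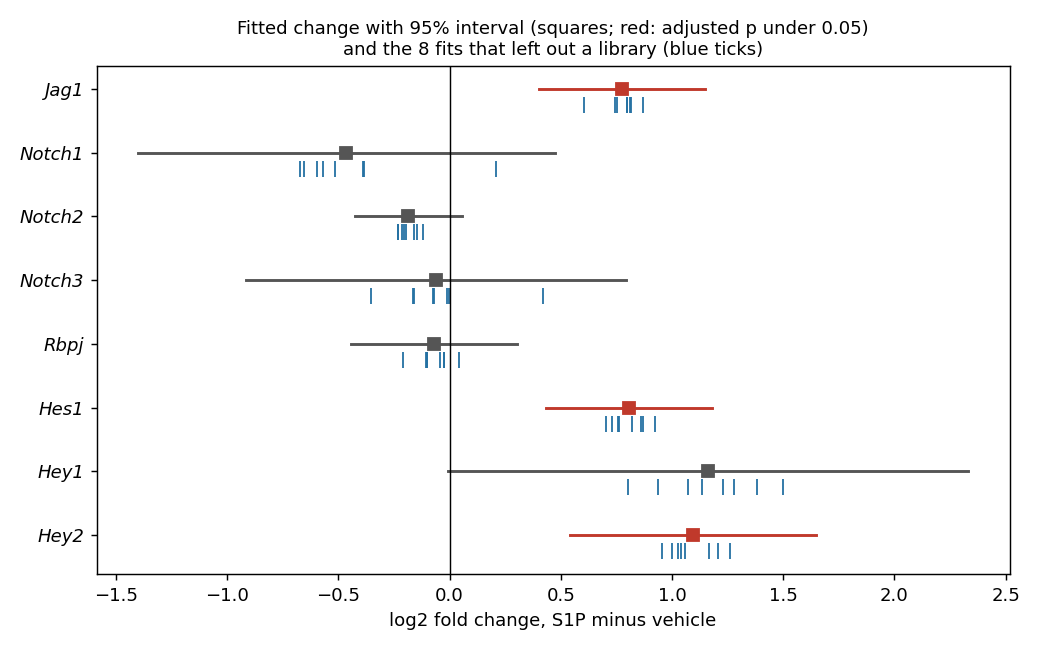
Fitted log2 fold change (S1P minus vehicle) of the 8 tested members with its 95% interval, red where the adjusted p is under 0.05, and in blue the values when each of the 8 libraries is left out in turn. Jag1, Hes1, Hey1 and Hey2 stay above 0 in these fits, whereas Notch1, Notch3 and Rbpj lie on both sides of 0.

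The count of 3 higher members rested on several libraries. It was 1 without vehicle replicate 2 (Hey2, with 3.86% of all genes higher) and 1 without S1P replicate 6 or 8 (Hes1 in both, with 2.79% and 3.01%). Without S1P replicate 7 no member was higher, with 408 of all genes higher (3.41%) in place of 663. Without vehicle replicate 4, or without both vehicle replicate 4 and S1P replicate 5, Jag1, Hes1 and Hey2 were all still called, with 9.49% and 9.92% of all genes higher. DESeq2 called the same 3 genes, where 8.21% of all genes were higher, and so did limma-voom, where 5.99% were.

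Single libraries were high or low for several members at once. Vehicle replicate 1 was the lowest of the 8 libraries for 5 of 8 members, Jag1, Hes1, Hey1, Hey2 and Notch3. Vehicle replicate 4 was the highest for all 3 receptors and the lowest for Rbpj. On the log2 scale its difference from the mean of vehicle replicates 1 to 3 was 1.77 for Notch1, 1.46 for Notch3 and 0.78 for Hey1. It was 0.30 for Hey2, 0.24 for Notch2, 0.20 for Jag1, 0.08 for Hes1 and -0.65 for Rbpj. Over 11634 tested genes with a known transcript, this difference followed the mean GC content of the transcripts (r = 0.744, across genes of a single library, which are not independent replicates). The mean GC content was 60.1% for Notch3, 57.5% for Notch1 and 43.2% for Rbpj, yet 58.8% for Hes1 and 56.4% for Notch2, which deviated little. Hey2 had the lowest GC content of the members, 41.9%, and its difference was positive. The part of GC content in the values of any member was not tested.

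**Figure D3:**
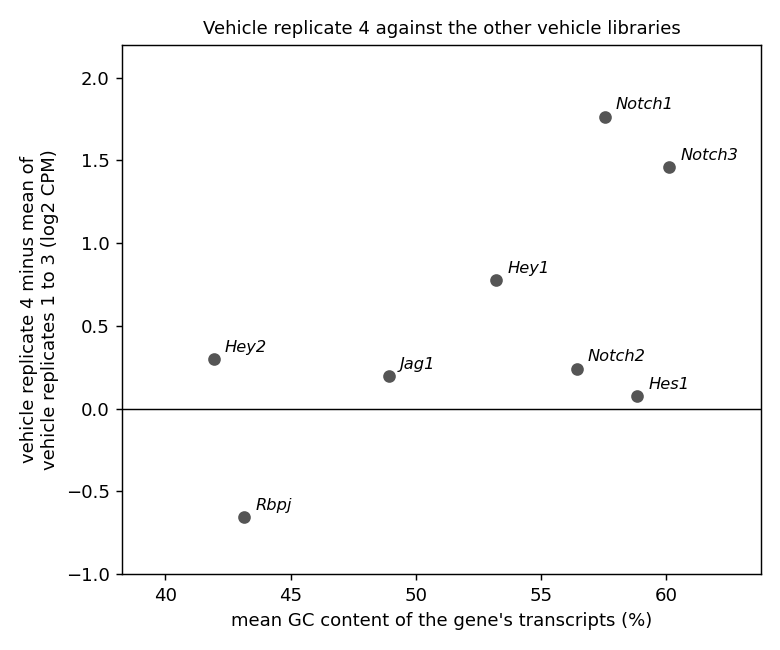
Difference of vehicle replicate 4 from the mean of vehicle replicates 1 to 3 (log2 CPM) for each tested member, against the mean GC content of its transcripts in percent. Notch1 and Notch3 deviate by 1.77 and 1.46, Rbpj by -0.65, and Hes1, with a GC content of 58.8%, by 0.08.

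Of 10 G2/M genes, 9 rose after S1P, among them Ccnb1, Cdk1 and Top2a, and Plk1 did not pass (BH-adjusted p = 0.102 in edgeR). The mean of the 10 was 4.86 log2 CPM in vehicle replicate 1, 5.89 to 6.15 in the other vehicle libraries, 7.26 in S1P replicate 5 and 7.47 to 7.72 in the other S1P libraries. Vehicle replicate 1 was thus lowest, and S1P replicate 5 lowest within its group, as for Jag1, Hey1 and Hey2. Of 5 tested smooth muscle and pericyte markers, Acta2 and Tagln rose after S1P (log2 fold changes of 1.00 and 2.69, BH-adjusted p = 0.016 and 0.0039 in edgeR). Rgs5, Cspg4 and Pdgfrb did not pass, with log2 fold changes of -0.14, -0.36 and -0.24, and Myh11, which was not tested, had means of 0.567 CPM in vehicle and 0.308 CPM after S1P. The part of either group of genes in the values of the members was not tested.

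The genes whose level ran most closely with each riser over the 8 libraries were picked by Pearson r of log2 CPM among 10898 genes outside the lists. For Jag1 these were Cks2, Kif20b and Cep55 (r = 0.991 each). For Hes1 they were Med8 (r = 0.99), Ccdc141 (r = 0.988) and Cyr61 (r = 0.976), and for Hey2 they were Plk2 (r = 0.993), Epb4.1l2 (r = 0.991) and Ntn4 (r = 0.979). These values describe 8 libraries that share the treatment difference, and the top of so long a ranking is high by selection. Med8, Epb4.1l2 and Ntn4 themselves did not pass the test (BH-adjusted p = 0.0964, 0.0969 and 0.112 in edgeR).

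Levels of different genes were compared only after division by the length of their merged exons in GENCODE M21. On this scale, in CPM per kilobase, Jag1 was the highest member, at 38.0 ± 8.40 in vehicle and 65.1 ± 4.44 after S1P (SD, n = 4 per group). In vehicle, Notch2 followed at 11.9 ± 1.06, then Rbpj at 9.14 ± 2.06, Hes1 at 8.28 ± 1.46, Notch3 at 4.92 ± 3.03, Notch1 at 3.19 ± 2.40, Hey2 at 1.53 ± 0.342 and Hey1 at 1.51 ± 0.895. Below Jag1, the libraries of each gene in this vehicle order overlapped with those of the next. After S1P, Hes1 came second at 14.5 ± 2.09, ahead of Notch2 at 10.5 ± 0.849, Rbpj at 8.71 ± 0.732 and Notch3 at 4.71 ± 0.706, and the libraries of these neighbours did not overlap. Hey1 at 3.38 ± 1.36, Hey2 at 3.26 ± 0.817 and Notch1 at 2.32 ± 0.447 formed the lower end, with overlapping libraries. These are levels, and the annotation behind the lengths may differ from that used for counting, which the sources used here do not name.

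The rest of the pathway was described from a list of 78 other symbols, of which 70 were found and 63 tested. Of these, 1 was higher and 3 were lower, against 5.6% and 2.9% of all tested genes, and 59 did not pass. At an unadjusted p under 0.05, 5 were higher and 10 lower, where 24.9% of all genes were past that level in either direction. The median log2 fold change of the 63 was -0.15, beside -0.04 over all tested genes.

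Neurl1b, a ubiquitin ligase that helps ligands be taken into the sending cell (chromosome 17, 26551710 to 26583483), was the one that rose. It held 4.19, 2.52, 3.40 and 3.27 CPM in vehicle and 11.8, 8.94, 11.2 and 9.05 CPM in S1P replicates 5 to 8. The groups lay far apart, and the spread within each was small beside the distance. Its mean was 3.35 ± 0.683 CPM in vehicle and 3.06-fold higher after S1P, at 10.2 ± 1.46 CPM (SD, n = 4 libraries each, with a log2 fold change of 1.61, SE 0.21, BH-adjusted p = 0.00355 in edgeR). It was called in all 8 leave-one-out fits (adjusted p of 0.00381 to 0.01545 in edgeR). The other 13 tested genes of endocytosis and turnover held 1 faller, Dtx3, where 2.9% of all tested genes were lower. Over all 14, 10 log2 fold changes were negative, with a median of -0.38, and 4 genes were lower at an unadjusted p under 0.05. Of all 11844 tested genes, 6389 had negative values and 1385 were lower at that level, with a median of -0.04. The ligase Mib1 (0.07) and the Notch inhibitor Numb (0.03) had values near 0. Their relatives Mib2 (-1.18) and Numbl (-0.73) had negative values that did not pass. For these, vehicle replicate 4 stood at 27.0 and 47.4 CPM, against 5.48 to 8.10 and 15.6 to 18.0 CPM in the other vehicle libraries. The S1P libraries held 4.11 to 6.43 and 13.3 to 16.2 CPM. The Deltex-type Dtx3l (-0.66) and Dtx4 (-0.64) also did not pass. Both were called lower with 1 surrogate variable, without vehicle replicate 4, and without both that library and S1P replicate 5. Dtx4 was also called lower with DESeq2.

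Psen2, a catalytic subunit of gamma-secretase (chromosome 1, 182156935 to 182193769), held 14.3, 11.3, 11.6 and 23.9 CPM in vehicle and 8.16, 6.40, 6.02 and 6.25 CPM after S1P. The groups did not overlap, with vehicle replicate 4 far above the rest. It fell 2.28-fold (log2 fold change -1.19, SE 0.26, BH-adjusted p = 0.0241 in edgeR) and lost its call without S1P replicate 6, 7 or 8 (adjusted p of 0.0790 to 0.0857). The subunit genes Ncstn, Aph1a and Psenen did not pass (log2 fold changes of -0.10, 0.09 and -0.03). Neither did Aph1b, whose log2 fold change was 0.60 (BH-adjusted p = 0.0863 in edgeR), but it was called higher with DESeq2 and without vehicle replicate 1. It has a close paralogue, Aph1c, so its own value is uncertain. Of the 14 tested genes for proteases, gamma-secretase and sugar transferases, Psen2 was the only one called, where 8.5% of all tested genes were called in either direction. The protease Adam17, which cuts many surface proteins, had a value of -0.66 on the same scale (BH-adjusted p = 0.0516 in edgeR). It was called lower with RLE factors, DESeq2 and 1 surrogate variable. It was also called without vehicle replicate 4, and without both that library and S1P replicate 5. Its span overlaps that of Iah1, which is also expressed.

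Tle2, a corepressor of the Groucho family that Hes proteins recruit (chromosome 10, 81037106 to 81053790), held 66.8, 34.5, 50.8 and 120.1 CPM in vehicle and 29.2, 20.1, 20.7 and 25.4 CPM after S1P. It fell 2.86-fold (log2 fold change -1.51, SE 0.34, BH-adjusted p = 0.0265 in edgeR), and was not called without vehicle replicate 1 or S1P replicate 6, 7 or 8 (adjusted p of 0.0504 to 0.0951). Its span overlaps Tle6 (16.4 CPM in vehicle and 17.3 CPM after S1P). Tle1, Tle3 and Tle4 did not pass (log2 fold changes of -0.20, -0.36 and 0.00), nor did the coactivators Maml1, Maml2 and Maml3 (-0.10, 0.14 and -0.40). Tle2 was the only gene called among the 22 tested of the nuclear complex and corepressors, where 8.5% of all tested genes were called in either direction.

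Dtx3, a Deltex-type ubiquitin ligase (chromosome 10, 126627234 to 126632984), held 71.5, 49.4, 84.7 and 113 CPM in vehicle and 41.4, 46.2, 46.3 and 44.8 CPM after S1P, with vehicle replicate 2 just above the S1P range. It fell 1.78-fold (log2 fold change -0.83, SE 0.22, BH-adjusted p = 0.046 in edgeR). The call held in 2 of 8 leave-one-out fits, which were without vehicle replicate 2 or 4, and not with limma-voom (adjusted p = 0.0611). Its span overlaps Arhgef25, at 179 CPM in vehicle and 121 CPM after S1P, and how shared reads were assigned is not known, which leaves the value of Dtx3 uncertain. Leaving out libraries moved the count of lower pathway genes from 3 to 8 without vehicle replicate 4, where 6.05% of all genes were lower, and to 1 without vehicle replicate 1, where 2.59% were. It was 0 without S1P replicate 6, 7 or 8, where 0.845%, 1.26% and 0.904% of all genes were lower.

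**Figure D4:**
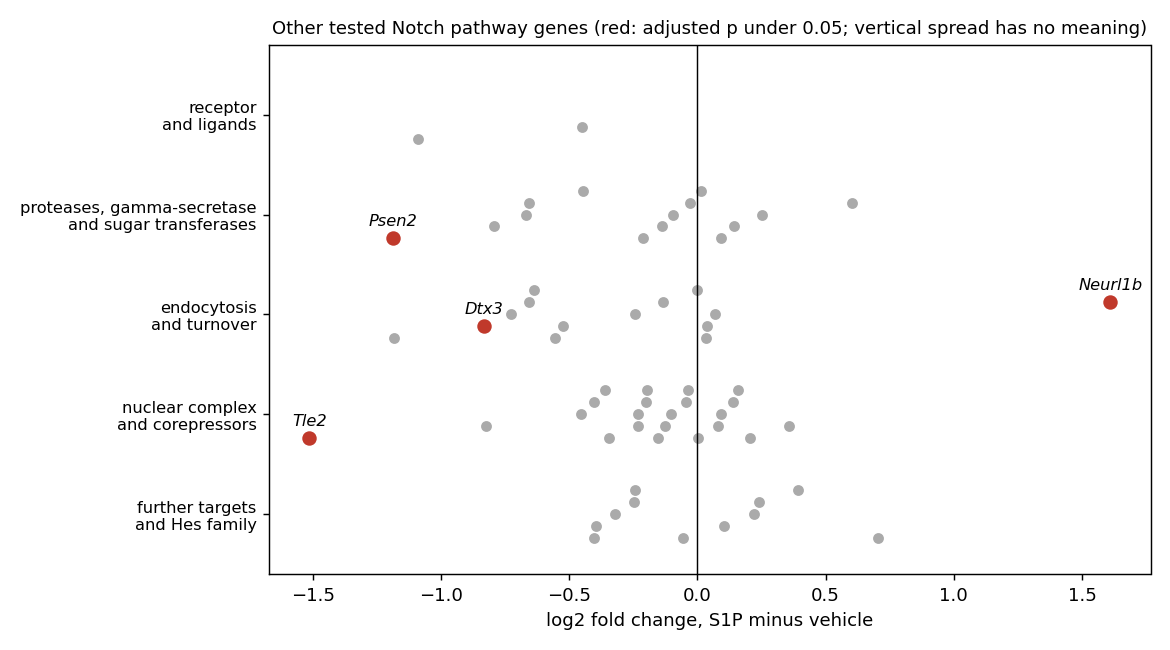
Fitted log2 fold change (S1P minus vehicle) of the 63 other tested pathway genes, by role, with genes past an adjusted p of 0.05 in red and named. Neurl1b lies alone at 1.61, and Psen2, Dtx3 and Tle2 lie at -1.19, -0.83 and -1.51.

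Other ligands and receptors were low. Of 7 symbols, 6 were found and 2 tested, the atypical ligands Dlk1 and Dner, and neither passed in edgeR, DESeq2 or limma-voom (1 lower at an unadjusted p under 0.05, Dlk1, with a log2 fold change of -1.09). The ligands Dll1 and Dll4 and the receptor Notch4 had means of 0.763, 0.0185 and 0.367 CPM in vehicle and 0.473, 0 and 0.236 CPM after S1P, and were not tested. Of 11 tested further targets and Hes relatives, none passed in edgeR or limma-voom, and 2 were higher at an unadjusted p under 0.05, the ephrin Efnb2 (log2 fold change 0.39) and the helix-loop-helix gene Bhlhe41 (0.71). At that level, 1559 of the 11844 tested genes were higher and 1385 lower. Efnb2 was called by DESeq2, with 1 surrogate variable, without vehicle replicate 4, and without both that library and S1P replicate 5. Bhlhe41 was called with 1 surrogate variable and without vehicle replicate 3. Nrarp, a feedback inhibitor that is a common readout of Notch activity, had 0.110 CPM in vehicle and 0.200 CPM after S1P, both under 3 counts per library on average, and was not tested. Hes6, Myc and Ccnd1 had log2 fold changes of -0.32, -0.06 and -0.40 and did not pass. Ccnd1 was called lower without both vehicle replicate 4 and S1P replicate 5. It held 502 CPM in S1P replicate 5, against 200 to 245 CPM in S1P replicates 6 to 8.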

How the data were processed

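RNA was sequenced from C3H10T1/2 cells, with 4 vehicle and 4 S1P libraries. The authors deposited counts, whole numbers for 18306 Ensembl genes with symbols and mm9 spans, made with STAR 2.5.3a on mm9, per the submitters' processing notes. For the counting tool, annotation and strand setting, nothing is given in the sources used here, so overlapping genes may share reads. The totals were nearly equal, and the depth before deposit is unknown. Columns were matched to samples by title. Genes were kept with filterByExpr (edgeR 4.0.16, R 4.3.3, with at least 10 counts), factors were set by TMM, and S1P was tested against vehicle with the robust quasi-likelihood test over all 8 libraries, Benjamini-Hochberg adjusted over 11844 genes with a threshold of 0.05. SEs come from the F statistic. The alternatives were other factors and filters, DESeq2 1.42.0, limma-voom (limma 3.58.1), 1 surrogate variable (sva 3.50.0) and leaving out libraries. On simulated counts for S1P against vehicle (11767 genes), 12% of 1.5-fold, 44% of 2-fold, 84% of 4-fold and 96% of 8-fold changes were recovered. The simulation changed 50 genes at each fold and set no library apart, so recovery in the real data may differ.

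The members and lists were chosen with earlier results of these data known. The text names all members, each called gene of the other lists, and for each riser the 3 genes of highest Pearson r with a mean of at least 2 CPM (log2 CPM with a prior count of 2). Other list genes named were chosen after their values were seen. The values of 1 list gene are not reported here. Exon lengths and GC content are from GENCODE M21 (GRCm38), matched by Ensembl identifier, and promoters are from RefSeq on GRCm38.p6. No coordinate was converted between builds. Intervals and floors cover counting error or library spread only, as stated beside them.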

Additional observations from a re-analysis of the deposited data

Results flagged for a closer look

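Notch1 in vehicle replicate 4, at 96.1 CPM, stood far from the other vehicle libraries, the nearest of which held 35.4 CPM. That gap made up 0.845 of the range of the group, above Dixon's critical value for 4 samples. It was the single such value among 24 groups of 4 (12 genes in vehicle and in S1P), and chance alone flags about 1 group in 20.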

How the results depend on the processing

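The direction of Jag1, Hes1, Hey1 and Hey2 was the same in each of the 16 alternatives, and Jag1, Hes1 and Hey2 were called in all of those that kept the 8 libraries. Leaving out 1 library at a time, the count of higher members ranged from 0 to 3 and that of lower members was 0. Over all genes these fits gave 333 to 1133 higher and 101 to 723 lower genes, and among the other pathway genes 1 to 2 higher and 0 to 8 lower. With 1 surrogate variable there were 1471 higher and 1015 lower genes, and 4 higher and 7 lower pathway genes. Without both vehicle replicate 4 and S1P replicate 5 these counts were 1178 and 934, and 3 and 6. DESeq2 called 804 lower genes, and 3 higher and 5 lower pathway genes. Higher genes made up 65.8% of the calls, but 54.6% with DESeq2 and 61.4% with RLE factors. Notch1 changed sign with the surrogate variable (log2 fold change 0.026), without vehicle replicate 4 (0.21) and without both libraries (0.10). Notch3 did so with limma-voom (0.14), the surrogate variable (0.26), without vehicle replicate 4 (0.42) and without both libraries (0.41), and Rbpj without vehicle replicate 3 (0.044). In the leave-one-out fits these ran from -0.67 to 0.21, -0.35 to 0.42 and -0.21 to 0.044. None of these values was called, and the cause was not tested. The longer motif GTGGGAA was found in 1 member in place of 2. The labels do not say whether libraries of the groups were paired, and the groups share no replicate numbers, so no paired analysis was made. With 4 libraries per group, only 12% of 1.5-fold and 44% of 2-fold changes were recovered in the simulated counts, and Jag2 and Heyl were too low to test.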
